A study of Homo sapiens with 14 samples.

Results

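A total of 152 genes of HepG2 cells stood out for a higher messenger RNA level after miR-124 transfection at 72 and 120 h, with little difference on average from 16 to 32 h. They were chosen by measured values. Among 13117 genes with a mean log2 level above 6.19, each represented by its brightest probe set, the log2 ratio (miR-124 minus control at the same time) had to be 0.8 or higher at both 72 and 120 h. The mean ratio of 16, 24 and 32 h had to lie between -0.3 and 0.3. Histone genes and STAR, MAF, CYP3A5 and CYP4F3 were left out by the rule, which removed 3 genes that met the values, H2BC4, H2BC6 and H2BC9. The level floor of 6.19 is the median over all probe sets.

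HepG2 is an established line of human liver tumour cells that keeps many hepatocyte features. Cells received either miR-124 or a negative control by transfection, and RNA was taken 4, 8, 16, 24, 32, 72 or 120 h later. Each transfection and time has 1 array, 14 in all, so single times have no replicate, and the control arrays share the transfection itself. The labels name neither the form and dose of miR-124, nor the sequence of the control, nor whether separate cultures were used. A p-value here does not rest on replicates. Its spread is how far the ratio of miR-124 to control differs between the times pooled in a test. That spread mixes change over time with technical spread, and the design cannot separate them.

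The microRNA miR-124 is plentiful in neurons and scarce in liver. MicroRNAs guide silencing proteins to messenger RNAs that pair with their seed, and lower those messengers within hours to days. Messengers that lie higher after such a transfection are usually not its direct targets. The genes described here are spread over many roles. They encode metabolic enzymes, surface receptors, cytoskeletal and junction proteins, lysosomal proteins, signalling proteins and transcription factors, and 142 of the 152 are protein-coding.

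The 14 arrays correlated at 0.903 to 0.997 over the genes tested, and none were identical. An array differed from the rest in its control probes, that of miR-124 at 4 h. The mean log2 signal of its 3 probe sets for 18S ribosomal RNA was 11.1, against 7.31 to 9.20 in the control arrays and 7.60 to 8.28 in the other miR-124 arrays. Its 15 poly-A spike probe sets averaged 6.88, against 5.50 to 5.95 in all 13 others. The early test below pools 4 and 8 h, and values of 8 h alone are given beside it where they moved. The hepatocyte label held: all 9 hepatocyte markers measured were above the floor, and their mean log2 level was 12.4 to 12.9 in every array. Of them FGB, a fibrinogen chain, was called lower late.

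The promoters of the genes were searched for 18 short motifs. RefSeq promoter windows of 300 bases (250 before and 50 after the start, GRCh38.p14) were at hand for 116 of the 152. A gene with several windows has more chances to hold a motif, so shares are also given over genes with 1 window, a choice made after seeing the data, which left 65 of the 152 and 7556 of the genes tested. Over the 116, the MAF site TGCTGA was in 31 (26.7%, against 18% of tested genes and 20.5% of all) and the E-box CACGTG in 24 (20.7%, against 12.3% and 8.77%). Over the 65 the MAF site lay on the other side, in 7 (10.8%, against 13.2% and 17.9%). The values that follow are over the genes with 1 window. The E-box, the site of MYC-type and sugar-sensing factors, was in 12 of the 65 (18.5%), against 10.2% of tested genes, 7.28% of all 22114 such promoters and 10.3% of the earlier risers described below. The AP-1 site TGANTCA was in 6 (9.23%, against 4.51% of tested genes and 8.05% of all). The GC box GGGCGG was in 48 (73.8% against 68.8% and 43.0%), CCAAT in 24 (36.9% against 37.2% and 36.2%) and the ETS site CCGGAAG in 8 (12.3% against 19.7% and 10.7%). TATAAA was in 1 (1.54% against 6.29% and 12.7%). The antioxidant element TGACNNNGC was in 8, against 15.6% and 13.5%, and the GATA site AGATAA in 6, against 5.25% and 10.9%. YY1 sites GCCATNTT were in 5, against 11% and 7%, NRF1 sites in 7, against 11.9% and 6.26%, and TTTGAA and TGACGTCA in 2 each, against 9.71% and 16.0%, and 3.51% and 2.01%. The interferon response element was in 1, against 2.54% and 3.81%. The p53 core CATGNCATG, the E2F site TTTCGCGC, the FOXO site GTAAACA and the direct repeat 1 of AGGTCA were in none of the 65, against 0.0397%, 0.940%, 2.45% and 0.0397% of tested genes, and 0.253%, 0.511%, 3.50% and 0.0271% of all. Both strands were searched, and the antioxidant element can overlap the AP-1 and MAF sites. A match is only a run of letters, and these shares have no test. The median GC content was 68.7% in the 65 and 65% in the tested genes. The promoters of 3 genes are shown, 5′ to 3′ on the gene's strand, with every match in capitals: ARRDC4 and TUBG2 because they hold both the E-box and the MAF site, and CYP17A1 because it is among the genes with the largest late ratios and holds neither E-box nor GC box, only a GATA site.
ARRDC4, chr15:97960453-97960752, plus strand: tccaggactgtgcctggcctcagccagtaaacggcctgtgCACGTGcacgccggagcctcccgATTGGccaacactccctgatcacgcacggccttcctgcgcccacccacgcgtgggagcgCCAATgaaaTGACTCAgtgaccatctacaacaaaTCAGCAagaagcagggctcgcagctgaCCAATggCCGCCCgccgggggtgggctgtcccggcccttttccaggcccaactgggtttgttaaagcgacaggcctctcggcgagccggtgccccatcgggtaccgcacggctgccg
TUBG2, chr17:42659034-42659333, plus strand: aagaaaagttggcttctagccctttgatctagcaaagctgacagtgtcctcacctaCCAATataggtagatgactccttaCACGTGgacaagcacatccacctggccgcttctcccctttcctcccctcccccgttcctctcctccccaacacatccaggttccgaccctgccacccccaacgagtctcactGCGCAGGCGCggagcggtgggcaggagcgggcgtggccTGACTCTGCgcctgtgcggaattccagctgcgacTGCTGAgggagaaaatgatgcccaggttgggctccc
CYP17A1, chr10:102837364-102837663, minus strand: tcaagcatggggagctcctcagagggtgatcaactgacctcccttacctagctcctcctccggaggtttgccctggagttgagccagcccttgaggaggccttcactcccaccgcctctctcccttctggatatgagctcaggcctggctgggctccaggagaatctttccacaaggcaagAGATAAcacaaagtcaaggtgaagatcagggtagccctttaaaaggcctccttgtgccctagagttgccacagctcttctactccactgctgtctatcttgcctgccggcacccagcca

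The genes separated from the control between 32 and 72 h. Their median log2 ratio was -0.04 and 0.03 in the first pairs (4 and 8 h), then 0.04, 0.19 and 0.28 in the middle ones (16, 24 and 32 h) and 1.14 and 1.04 in the late ones (72 and 120 h). In bulk samples fewer cells of a type and less RNA per cell cannot be told apart, and the same holds for more. The median over all 13117 genes stayed between -0.02 and 0.05 at the 7 times. The 72 h and 120 h values, and the mean of 16 to 32 h, chose the genes and are a description. The largest ratio of any of these genes before 72 h was 0.74, that of TRIM50 at 32 h, and in each of the 152 genes every ratio from 4 to 32 h lay below both late ratios. A further 225 genes also reached 0.8 at both late times but had a middle mean above 0.3. In those earlier risers the median ratio was already 0.30 at 16 h and 0.49 at 24 h, and the late medians were 1.37 and 1.16. None of the genes past 0.8 at both late times had a middle mean below -0.3.

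**Figure D1:**
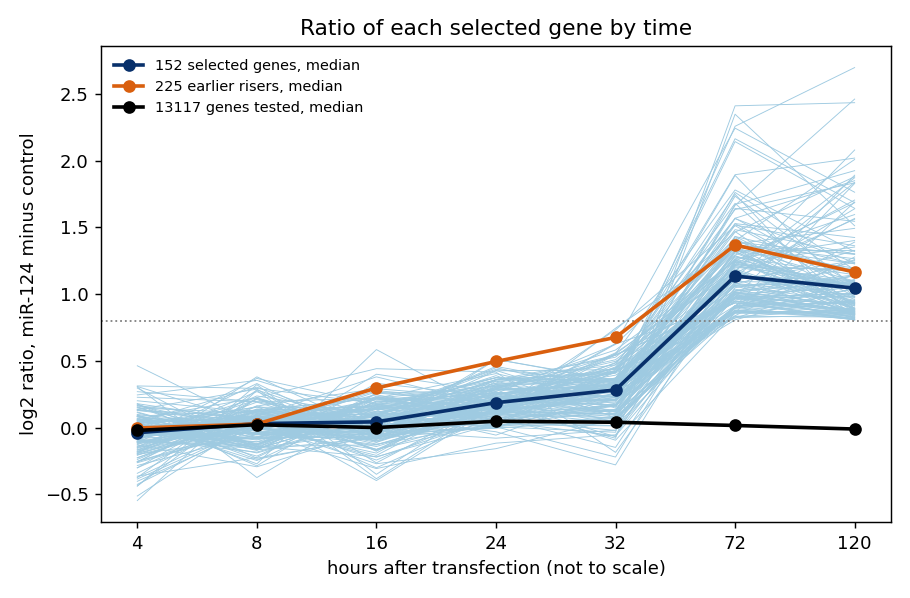
Log2 ratio of miR-124 over control (vertical axis) against hours after transfection (horizontal axis, evenly spaced and not to scale). Thin lines are the 152 genes, the blue, orange and black points are the medians of the 152 genes, of the 225 earlier risers and of the 13117 genes tested, and the dotted line marks 0.8. The median of the 152 genes is 0.28 at 32 h and 1.14 at 72 h.

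The first hours were not used to choose the genes and could be tested. Over the 4 and 8 h pairs, limma's fit across all 13117 genes called 0 genes higher and 0 lower at an adjusted p under 0.05 (0% either way), and hence none of the 152. Without 4 h the count was also 0, but that window is then 1 pair whose spread is taken from the other times. At an unadjusted p under 0.05 the fit held 162 genes (1.24%), among them 4 of the 152 (2.63%). These were KLF11 at 0.30 ± 0.10 (mean of 2 time pairs ± SE of the fit), TMEM8B at 0.30 ± 0.10, UCA1 at 0.23 ± 0.08 and LOC151760, which was lower at -0.29 ± 0.10. With no effect and a matching spread, a share of genes near 0.05 would pass, so the early test is likely conservative. Its spread is pooled with that of the later times, where ratios can change from time to time. The 0 calls therefore do not show that early effects are absent. The early difference of the 152 genes ran from -0.29 to 0.30 with a median of -0.02, standard errors were 0.08 to 0.24, and the adjusted p was 0.99997 for each. At 4 h, 62 of the 152 had a ratio above 0 (40.8%, against 43.4% of all genes tested), and at 8 h 89 had one (58.6% against 56.9%). A ratio above 0.3 at 4 or 8 h occurred in 10 of them (6.58%, against 2.51% of all genes), and one below -0.3 in 14 (9.21%, against 7.31%).

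The selection kept the middle mean near 0 but did not keep every middle ratio there. Each of the ratios of 16, 24 and 32 h lay within 0.3 of 0 in 63 of the 152 genes. The ratio was above 0.3 in 5, 30 and 72 genes at these times. That is 47.4% at 32 h, against 11.5% of all genes tested, though the rule used this value. In 130 genes (85.5%, against 55.4% of all genes) the ratio at 32 h exceeded that at 16 h, and in 77 it increased at both steps. Shares over all genes were not taken for the 63, for the 77 or for the counts at 16 and 24 h. The highest 32 h ratios after TRIM50, an E3 ubiquitin ligase, were 0.73 for CD74, the invariant chain of antigen presentation, and 0.63 for both GPC1 and ITPR3-AS1. Late-only therefore describes the average over 16 to 32 h and not each time. In the middle window 455 genes were called higher (3.47%), of which MPPE1 and MYO5A were among the 152 (1.32%). Leaving out the 4 h or the 8 h pair gave 193 such calls, and leaving out the 16, 24 or 32 h pair gave 256, 0 and 3. It was 1122 when the pair of 72 or of 120 h was left out. In the late window 2163 genes were called higher (16.5%) and 1659 lower (12.6%), the latter count being 2605 without 120 h. All 152 were among those called higher, which the choice of the genes fixed.

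The thresholds cut through a continuum. Just inside the late threshold, the smaller of the 2 late ratios was 0.806 for LINC-PINT, 0.806 for PPARD and 0.807 for USP11. Just outside lay EVL at 0.799, ABTB3 at 0.795 and TOMM34 at 0.793. At the upper middle limit, DENND6A, MAST4 and USP11 had means of 0.298, 0.298 and 0.297, and NLK, PRKACB and COA1 were left out at 0.305, 0.307 and 0.308. The lower middle limit cut nothing, since the lowest middle means were those of PPL at -0.160, RASSF4 at -0.122 and SCGN at -0.100. The dimmest genes kept were PMAIP1 at a mean log2 level of 6.21, RND3 at 6.23 and GEM at 6.23, and the brightest left out were STRIP2 at 6.18, TMEM150C at 6.13 and FLRT3 at 6.13. The late arrays themselves lifted some genes over the floor. In 11 genes the mean of the 12 other arrays was at or below it: EEF1A2, GEM, HTR1D, KIF5C, KLF11, LOC105371763, LOC151760, MYO1D, PMAIP1, RIPOR2 and RND3. They passed the floor only through the late miR-124 arrays, and their ratios compare a signal with one near the floor. The other 141 lay above it without those arrays.

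Enzymes of metabolism and modification formed the largest role group, with 24 genes and late means (of the 72 and 120 h ratios) from 0.83 to 2.42. VNN1 is vanin-1, an enzyme that releases cysteamine from pantetheine and a known target of the lipid-sensing receptors PPAR. Its log2 levels from 4 to 120 h were 5.77, 5.70, 6.17, 6.43, 6.69, 7.05 and 7.73 in the control and 5.85, 5.46, 6.11, 6.43, 6.65, 9.46 and 10.17 with miR-124. The arms ran side by side up to 32 h, both higher at 32 h than at 4 h, and the late miR-124 arrays then lay above all 12 others. The difference was 5.32-fold at 72 h and 5.41-fold at 120 h, and -0.08 ± 0.10 (SE) on the log2 scale over 4 and 8 h, with -0.24 at 8 h alone. CYP17A1 makes the precursors of cortisol and of the sex steroids, chiefly in adrenal and gonad. Its levels were 6.79, 6.74, 6.70, 6.76, 6.69, 7.16 and 7.31 in the control and 6.61, 6.88, 6.82, 6.95, 7.10, 9.05 and 9.33 with miR-124. The late miR-124 arrays again lay above all the others, and 3.72-fold and 4.05-fold above their own controls, with an early difference of -0.02 ± 0.11 (SE), which was -0.18 at 4 h and 0.14 at 8 h. PCYOX1L, a relative of the enzyme that breaks down prenylated cysteine, read 6.18 to 6.89 in the control (median 6.38) and 6.33 to 6.67 with miR-124 up to 32 h. It then read 7.93 and 8.77, or 2.76-fold and 3.68-fold above control, and its highest control array was the one at 120 h.

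ST3GAL5 adds sialic acid to lactosylceramide, the entry step to the gangliosides. It read 6.96 to 7.18 in the control (median 7.13), 7.06 to 7.34 with miR-124 up to 32 h, and 8.39 and 8.46 at 72 and 120 h. The late miR-124 arrays lay above all others, and 2.35-fold and 2.55-fold above their own controls. Several mitochondrial and redox enzymes were in this group. GPX1, the main glutathione peroxidase of the cytosol, had late ratios of 1.35 and 1.10 at 72 and 120 h. NNT, which makes mitochondrial NADPH from the proton gradient, had 1.21 and 1.07, and the NADP-dependent isocitrate dehydrogenase IDH2 had 1.32 and 0.91. PDP1 switches pyruvate dehydrogenase on and had 1.21 and 1.04. EPM2A, the glycogen phosphatase laforin, had 1.73 and 1.06, and HHAT, which attaches palmitate to hedgehog proteins, had 1.78 and 1.32. NAT2, the N-acetyltransferase behind slow and fast drug acetylation, had 0.82 and 1.11. The same 2 times gave 1.20 and 1.19 for PIGT, a subunit of the enzyme that attaches GPI anchors, and 1.17 and 0.84 for the D-amino acid oxidase DAO.

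**Figure D2:**
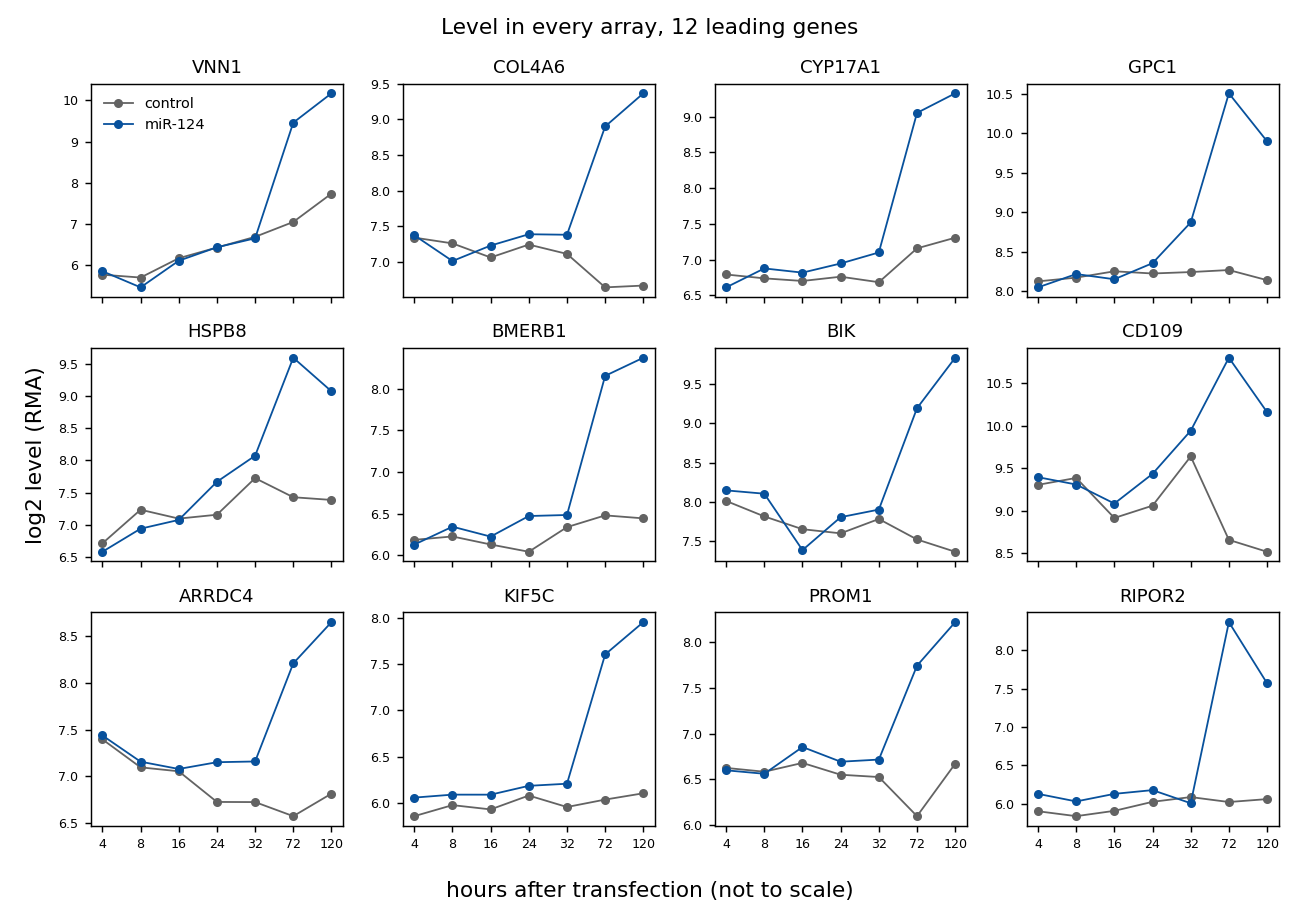
Log2 RMA level (vertical axes, a scale of its own for each gene) against hours after transfection (horizontal axes, not to scale) for 12 genes with the largest late ratios, with 1 point for each array, control in grey and miR-124 in blue. The widest gaps are at 72 and 120 h, as for VNN1, where miR-124 reads 6.65 at 32 h and 9.46 at 72 h, while HSPB8 is 0.51 above control at 24 h and GPC1 0.63 at 32 h.

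Secreted and matrix proteins numbered 8, with a median late mean of 1.32. COL4A6 is a chain of basement membrane collagen. Its control levels were 7.34, 7.26, 7.06, 7.24, 7.11, 6.64 and 6.67 from 4 to 120 h, and its miR-124 levels were 7.38, 7.01, 7.23, 7.39, 7.38, 8.90 and 9.37. The control was lowest late and miR-124 highest late, and the difference was 4.78-fold and 6.49-fold after -0.11 ± 0.12 (SE) early, with -0.25 at 8 h alone. GPC1, a heparan sulphate proteoglycan held at the membrane by a lipid anchor, was flat in the control at 8.12 to 8.27 (median 8.22). With miR-124 it read 8.05 to 8.35 up to 24 h and 8.87 at 32 h, and the late arrays read 10.51 and 9.90. It was thus above every control array from 24 h, and its late differences were 4.74-fold and 3.40-fold. IGFBP2 binds insulin-like growth factors. It ranged from 6.94 to 7.59 in the control (median 7.09) and from 6.87 to 7.42 with miR-124 up to 32 h, then read 8.33 and 8.77. LTBP1, which holds latent TGF-beta in the matrix, read 7.21 to 7.48 in the control (median 7.33) and 7.24 to 7.37 with miR-124 up to 32 h, a span of little more than 0.1 units. At 72 and 120 h it read 8.37 and 8.69, 1.86-fold and 2.39-fold above control. IL1RN, the natural antagonist of the interleukin-1 receptor, had late ratios of 1.53 and 1.05, and the neural guidance protein SEMA3G had 1.48 and 1.30.

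Membrane receptors, channels and surface proteins numbered 20, with a median late mean of 1.29. CD109, a GPI-anchored protein that binds TGF-beta receptors, read 9.31, 9.39, 8.92, 9.06, 9.64, 8.66 and 8.52 in the control. With miR-124 it read 9.40, 9.31, 9.09, 9.44, 9.94, 10.80 and 10.16. Here too the control was lowest late, and the differences were 4.42-fold and 3.12-fold. Its late mean was 1.89 with the brightest probe set and 1.16 with the mean of all, since the other sets had smaller late ratios of 0.60 and 0.67. PROM1, the stem and progenitor cell marker CD133, read 6.10 to 6.68 in the control (median 6.58) and 6.56 to 6.85 with miR-124 up to 32 h. It then read 7.74 and 8.22, 3.12-fold and 2.92-fold above control, and the 72 h control array was its lowest. CD24, another surface marker of progenitor cells, had ratios of 1.25 and 1.69 at 72 and 120 h. APP, the amyloid precursor protein, had 1.11 and 1.64, and PLXNC1, a semaphorin receptor, had 0.97 and 1.89. The pentraxin receptor NPTXR had 0.91 and 1.83, but another probe set for it gave -0.18 and -0.11. Their mean levels were close, at 8.25 for the chosen set and 7.94 for the other. The potassium channel KCNJ10 had 1.89 at 72 h and 0.97 at 120 h, while the mechanically gated channel PIEZO2 had 1.32 and 1.33.

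The group of cytoskeletal proteins, motors and their regulators held 22 genes with late means from 0.85 to 1.93. KIF5C is a kinesin heavy chain best known from neurons. It read 5.86 to 6.10 in the control (median 5.98) and 6.06 to 6.21 with miR-124 up to 32 h, all at or near the floor, and 7.60 and 7.95 at 72 and 120 h. The late arrays lay 2.97-fold and 3.60-fold above control. Its light chain partner KLC1 had ratios of 0.97 and 0.88. BMERB1, a protein with a bMERB domain, read 6.04 to 6.48 in the control (median 6.23), 6.13 to 6.48 with miR-124 up to 32 h, and 8.15 and 8.37 late. RIPOR2 read 5.84 to 6.09 in the control (median 6.02) and 6.01 to 6.18 with miR-124 up to 32 h. It read 8.37 at 72 h and 7.57 at 120 h. Every control array lay below the floor of 6.19, so the size of its late difference is uncertain. The spectrin-binding ankyrin ANK2 had ratios of 1.17 and 2.08. The actin oxidase MICAL2 had 1.12 and 1.84, the formin DAAM1 had 1.22 and 1.17, and the myosins MYO5A and MYO1D had 1.12 and 1.08, and 1.25 and 0.88.

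In all, 3 genes of this group were in the microtubule and cilium list. TUBA1A, an alpha-tubulin of growing neurons, was also higher late in the control. Its control levels were 8.65, 8.16, 8.37, 8.55, 8.55, 9.39 and 9.65, and its miR-124 levels were 8.62, 8.22, 8.42, 8.69, 8.62, 10.30 and 11.04. Both arms were higher late than at the start, and miR-124 lay 1.88-fold and 2.62-fold above control. TUBG2, a gamma-tubulin of microtubule nucleation, read 6.87 to 7.20 in the control (median 6.95), 6.71 to 7.44 with miR-124 up to 32 h, and 8.03 and 8.49 late. BBS1, part of the coat that carries receptors into the cilium, read 7.29 to 7.75 in the control (median 7.65), 7.38 to 8.01 up to 32 h, and 8.89 and 8.88 late. All 3 had late miR-124 arrays above the 12 others. Of the 26 other genes of that list, 11 were called higher and 3 lower late, with a median late effect of 0.27. The largest were KIF3B at 1.40 ± 0.17 (mean of 2 late pairs ± SE of the fit), KIF3A at 1.32 ± 0.10 and IFT57 at 1.17 ± 0.10, the motors and a cargo adaptor of transport within the cilium.

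Junction and polarity proteins numbered 9, with late means from 0.95 to 1.70. CDH16 is a cadherin of kidney epithelium. It read 6.55 to 6.94 in the control (median 6.67), 6.60 to 6.91 with miR-124 up to 32 h, and 8.14 and 8.95 late, 2.64-fold and 4.03-fold above control. JUP, plakoglobin, links cadherins of desmosomes and adherens junctions to the cytoskeleton. It read 8.73 to 8.99 in the control (median 8.79), 8.71 to 9.42 with miR-124 up to 32 h, and 10.12 and 9.89 late. It was above every control array already at 24 and 32 h, with 9.12 and 9.42. PPL, the desmosomal plakin periplakin, had ratios of 1.09 and 1.08, the Hippo pathway protein WWC1 had 1.32 and 1.20, and the tight junction protein MARVELD3 had 1.07 and 1.09. Among the 26 other genes of the epithelial junction and keratin list, 6 were called higher and 2 lower late, with a median of 0.09. CDH1, E-cadherin, was at 1.51 ± 0.15 (SE), DSC2 at -0.91 and CLDN1 at -0.85 (limma adjusted p = 0.071).

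Cell death and stress proteins numbered 7. HSPB8 is a small heat shock protein that works with BAG3 in clearing misfolded proteins. Its control levels were 6.71, 7.24, 7.10, 7.16, 7.73, 7.43 and 7.39, and its miR-124 levels were 6.58, 6.94, 7.08, 7.67, 8.07, 9.59 and 9.07. It lay below control at 4, 8 and 16 h and above it from 24 h, reaching 4.48-fold and 3.22-fold. A dimmer probe set for the same gene did not show this, with ratios of 0.04 and -0.03. BIK, a BH3-only protein of the endoplasmic reticulum that promotes apoptosis, read 8.01, 7.82, 7.66, 7.60, 7.78, 7.53 and 7.37 in the control. With miR-124 it read 8.15, 8.11, 7.39, 7.81, 7.90, 9.19 and 9.83. The control was lowest and miR-124 highest at 120 h, and the difference was 3.17-fold at 72 h and 5.51-fold at 120 h. PMAIP1, the BH3-only protein NOXA and a target of p53, read 5.66 to 6.22 in the control (median 6.07) and 5.81 to 6.33 with miR-124 up to 32 h. It then read 6.93 and 7.28, and its 72 h ratio of 1.28 was taken against its lowest control array, 5.66. TP53INP2, which acts in autophagy, read 9.40 to 9.88 in the control (median 9.51), 9.0 to 10.02 with miR-124 up to 32 h, and 11.05 and 10.76 late. Its ratio moved from -0.40 at 16 h to 0.56 at 32 h, on either side of a middle mean near 0.

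Among the 12 lists with a selected gene, the p53 target list, which holds PMAIP1 and TP53INP2, had the largest share of other genes called higher. Of its 25 other tested genes, 18 were called higher and 1 lower late (16.5% and 12.6% over all genes), with a median late effect of 0.70, while the median over all genes was 0.02 at 72 h and -0.01 at 120 h. CYFIP2 was at 2.30 ± 0.27 (SE), TP53I3 at 2.10 ± 0.38 and the death receptor FAS at 1.77 ± 0.27. The median effect of those 25 in the middle window was 0.39. In the apoptosis list 8 of the 32 genes other than BIK were called higher and 4 lower, with BIRC5 at -1.32, CASP6 at -1.01 (limma adjusted p = 0.053) and TNFRSF10A at 0.87. In the autophagy list 9 of the 27 others were called higher and 0 lower, led by ATG14 at 0.81, OPTN at 0.80 and NBR1 at 0.72.

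The lysosome, endosome and vesicle group held 15 genes with late means from 0.85 to 1.40. SCARB2 carries glucocerebrosidase to lysosomes. It read 10.08 to 10.44 in the control (median 10.13), 9.89 to 10.43 with miR-124 up to 32 h, and 11.34 and 11.53 late. HEXA, the alpha subunit of beta-hexosaminidase, which degrades gangliosides, read 9.26 to 9.94 in the control (median 9.62), 9.32 to 10.06 up to 32 h, and 11.09 and 10.88 late. Both had late miR-124 arrays above all others. Over the control of the same time they were 2.09-fold and 2.14-fold higher for SCARB2, and 2.55-fold and 1.91-fold for HEXA. HGSNAT, an enzyme of heparan sulphate breakdown, had ratios of 0.88 and 0.85. GNPTG, a subunit of the enzyme that puts the lysosomal address on hydrolases, had 0.96 and 0.85, and BORCS7, part of the complex that moves lysosomes along microtubules, had 1.02 and 0.91. Calls in the lysosome list went both ways. Of its 28 other genes 6 were called higher and 5 lower, shares near the 16.5% and 12.6% over all genes, with a median of 0.10. IDS was at 1.76 ± 0.13 (SE), LIPA at -1.10 ± 0.17 and CTSH at -1.03 ± 0.11.

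Signalling proteins numbered 13. ARRDC4 is an arrestin-related protein that restrains glucose uptake. It read 7.40, 7.10, 7.06, 6.73, 6.73, 6.58 and 6.82 in the control and 7.44, 7.16, 7.08, 7.15, 7.16, 8.21 and 8.65 with miR-124. The control was lower from 24 h on than before, and the late miR-124 arrays lay above every other array, 3.10-fold and 3.57-fold over control. MLXIP encodes MondoA, the sugar-sensing factor known to act on ARRDC4, and was itself among the 152 with ratios of 0.91 and 1.14. TXNIP, the relative of ARRDC4 that is the best known MondoA target, was chosen for a look after its values were seen and was not among them. Its ratio was 0.57 at 72 h and -0.67 at 120 h, with a late effect of -0.05 ± 0.24 (SE, limma adjusted p = 0.908). PRKCA, protein kinase C alpha, had ratios of 1.35 and 1.23, SOCS2, a feedback inhibitor of growth hormone signalling, had 1.76 and 1.18, and the G protein regulator RGS20 had 1.27 and 1.40.

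Transcription, chromatin and repair proteins numbered 12, with late means from 0.87 to 1.43. PPARD, the fatty acid receptor PPAR-delta, read 7.68 to 7.92 in the control (median 7.88), 7.66 to 8.21 with miR-124 up to 32 h, and 8.84 and 8.69 late, 1.91-fold and 1.75-fold above control. PAX6, a regulator of eye, brain and endocrine pancreas development, had ratios of 1.43 and 1.23. SP100, a protein of PML nuclear bodies, had 1.32 and 0.96, the repressor KLF11 had 1.31 and 0.92, and XRCC4, which serves the joining of DNA ends, had 1.21 and 1.06. ZNF432 had 0.86 and 1.69. In the peroxisome and PPAR target list, which holds VNN1 and PPARD, 0 of the 21 other genes were called higher and 6 lower late, with a median of -0.09. FABP1 was at -1.71 ± 0.17 (SE), CPT1A at -0.92 and ACOX2 at -0.89.

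The ubiquitin group held 4 genes. FBXO3, a substrate receptor of a ubiquitin ligase, read 7.89 to 8.11 in the control (median 8.08), 7.92 to 8.32 with miR-124 up to 32 h, and 9.22 and 9.01 late. TRIM50 had ratios of 1.37 and 1.30, and the deubiquitinases USP54 and USP11 had 0.87 and 0.87, and 0.95 and 0.81. In the list of ubiquitin ligases and F-box proteins 13 of the 26 others were called higher and 3 lower, with a median of 0.30, and the largest were SKP2 at -1.49 (limma adjusted p = 0.063), MDM4 at 0.83 and SIAH2 at 0.81. The 8 non-coding transcripts had late means from 0.86 to 1.28, the highest being LINC-PINT with 1.75 at 72 h and 0.81 at 120 h. LOC151760, a locus with no role given, read 5.97 to 6.22 in the control (median 6.10), 5.86 to 6.38 with miR-124 up to 32 h, and 7.50 and 7.53 late. EEF1A2, the elongation factor form of muscle and neurons, had 1.22 and 1.71.

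The remaining lists with a selected gene held calls both ways. In the sphingolipid list 6 of the 23 genes other than ST3GAL5 were called higher and 5 lower, with ACER2 at 2.53 ± 0.32 (SE), CERS2 at -1.83 and GLTP at -1.36. In the TGF-beta and BMP list 7 of the 28 others were called higher and 5 lower, with TGFBR3 at -1.80, SMAD9 at -1.68 and INHBE at -1.47. In the growth factor feedback list 9 of the 32 others were called higher and 6 lower, with IGFBP1 at -1.25, EREG at 1.07 and DUSP10 at 1.02. In the list of small stress and folding proteins 2 of 13 others were called higher and 1 lower, and the largest effects were HSPH1 at 0.81, DNAJB9 at -0.68 (limma adjusted p = 0.092) and DNAJB2 at 0.38 (limma adjusted p = 0.098). Over the 12 lists that hold a selected gene, 92 of 301 other genes were called higher and 41 lower, with a median late effect of 0.09, where all genes gave 16.5% higher and 12.6% lower. The lower share was near that background and the higher share was above it, with 18 of the 92 in the p53 target list. These lists were pooled because each holds a gene selected for a high late ratio, and the shares were not tested. The other 14 of the 26 lists held none of the 152. Among those, the mitosis list had 0 genes higher and 30 lower of 30, and the reported miR-124 targets had 1 higher and 21 lower of 31. No list gene was called early.

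Which of the 2 late ratios was the larger varied from gene to gene. The median of the 120 h ratio minus the 72 h ratio was -0.08, against -0.15 in the 225 earlier risers. The 120 h ratio was the larger in 57 genes and the 72 h ratio in 95, but in 103 the 2 differed by less than 0.3, and single arrays leave that difference without a test. Of the others, 30 had the larger ratio at 72 h. The 120 h minus 72 h difference was -0.94 for LINC-PINT, -0.92 for KCNJ10 and -0.79 for PBXIP1. In 19 the 120 h ratio was larger by 0.3 or more, with differences of 0.92 for PLXNC1, 0.92 for NPTXR, 0.91 for ANK2 and 0.80 for BIK. The difference between the arms was at least 2-fold at both late times in 69 genes.

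**Figure D3:**
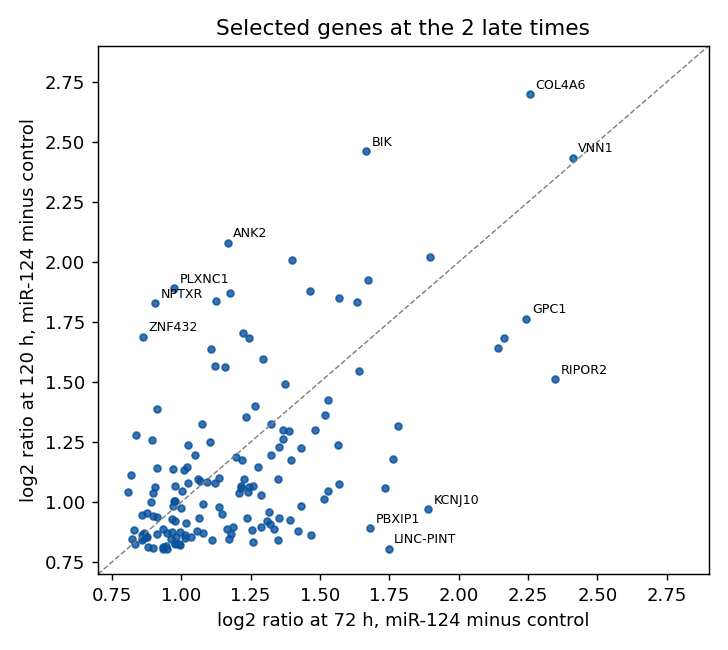
Log2 ratio of miR-124 over control at 120 h (vertical axis) against that at 72 h (horizontal axis), with 1 point for each of the 152 genes and the dashed line where both are equal. No point lies below 0.8 on either axis, because the genes were chosen so, and 95 of the 152 lie below the line.

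The difference came mostly from the miR-124 arm. Against the start (the mean of both arms at 4 and 8 h), the median log2 level of the 152 genes with miR-124 was 0.09 higher at 16 h and 0.34 higher at 32 h, and in the late arrays it was 1.17 and 1.15 higher. In the control it stayed between -0.02 and 0.07 at all 7 times. In 148 of the 152 the miR-124 arm changed more than the control arm, a count for which no share over all genes was taken. In 129 the control changed by no more than 0.5. With miR-124, 147 genes were over 0.5 above the start late (96.7%, against 12.6% of all genes). In the control 10 were over 0.5 below it (6.58% against 4.56%) and 13 over 0.5 above it (8.55% against 4.04%). The control of the selected genes thus moved by over 0.5 more often than that of all genes. Both late miR-124 arrays lay above the 12 other arrays in 147 genes (96.7%, against 14.4% of all genes), shares that the choice of the genes makes high. The 5 exceptions were AMOTL2, HSPA12A, LINC01806, NMI and SPAG1. HSPA12A, a distant relative of the HSP70 chaperones, was the 1 gene whose late miR-124 level lay below the start, by -0.16, against -1.29 in the control. In NMI, a partner of MYC and STAT proteins, the control read 7.09 at 4 h, 6.18 at 72 h and 5.68 at 120 h, and miR-124 read 6.91, 7.56 and 7.18.

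**Figure D4:**
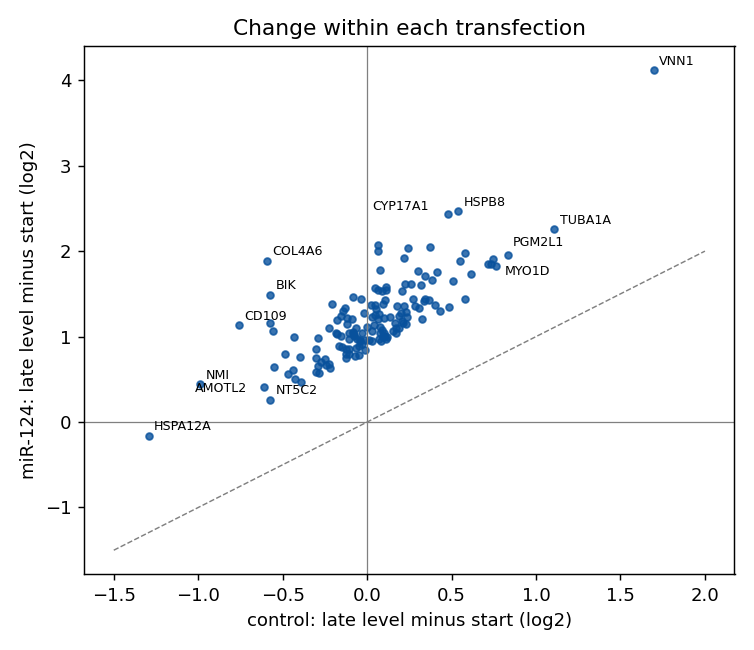
Late log2 level (mean of 72 and 120 h) minus the start with miR-124 (vertical axis) against the same in the control (horizontal axis), with 1 point for each of the 152 genes and the dashed line where both arms change alike. Most points stand near 0 on the control axis and between 0.5 and 2 on the miR-124 axis, and HSPA12A is below 0 on both.

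Other probe sets gave a second reading for 71 of the 152 genes, since the rule used only the brightest. Of 120 other sets above the floor, 94 had a ratio above 0 at both late times, 25 reached 0.8 at both, and 51 had a smaller late ratio under 0.3. In 21 genes at least 1 other set reached 0.8 at both times. VNN1 was among them, with 1.44 and 1.85 from its other set. The 4 other sets for CD24 had smaller late ratios of 0.61 to 1.19. In 20 genes every other set had a smaller late ratio under 0.3, among them HSPB8, BMERB1, CD74, NPTXR, PRKCA and PPARD. The larger late ratio could be above that, as in CTTNBP2NL with 0.93 at 72 h and 0.24 at 120 h. The other HSPB8 set read 0.04 and -0.03 at a mean level of 6.72, against 7.55 for the chosen set. Sets also disagreed within genes. KLC1 had 1.81 and 1.85 from another set, -0.14 and -0.15 from the next and -0.65 and -0.11 from the last. ARF3 had -0.44 and -0.37 from a set nearly as bright as the chosen one, with mean levels of 9.54 and 10.05. Among 58 other sets within 1 log2 unit of the chosen level, 17 reached 0.8 at both times. A smaller late ratio under 0.3 occurred in 17, and 5 were below 0 at both times. With the mean of all probe sets of a gene in place of the brightest, the late difference of 23 genes was more than 1.5-fold smaller. That count was made on fold differences, not on log2 values. On the log2 scale the late mean of HSPB8 went from 1.93 to 0.97, of PRKCA from 1.29 to 0.38, of WWC1 from 1.26 to 0.41, of BBS1 from 1.32 to 0.48 and of HEXA from 1.14 to 0.42. The other 81 genes had 1 set above the floor, and the mean for some of them, such as BBS1, takes in sets below it.

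**Figure D5:**
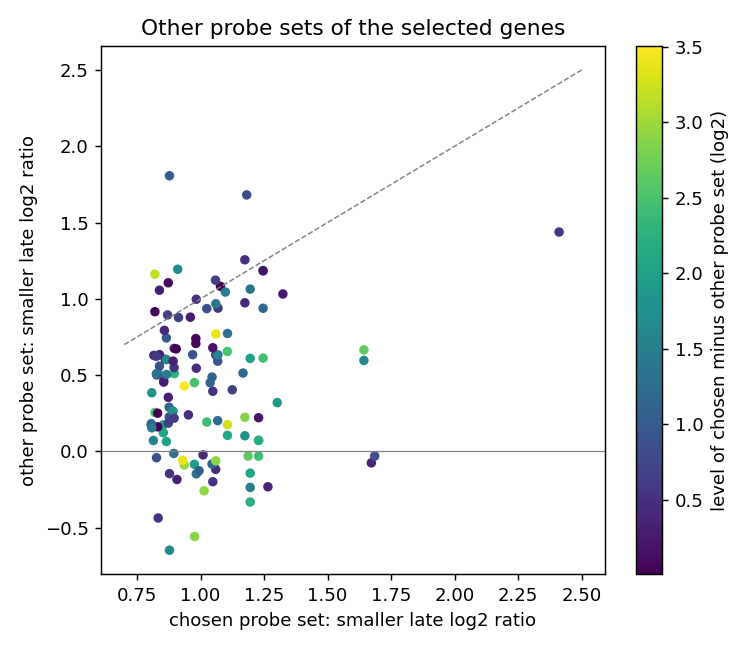
Smaller of the 72 and 120 h log2 ratios for each of 120 other probe sets (vertical axis) against the same value for the chosen set of that gene (horizontal axis), coloured by how much dimmer the other set is in log2 units. The dashed line marks equal values. Of the 120, 25 reach 0.8 and 51 lie under 0.3, and both kinds occur among sets of nearly equal level.

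Markers of other cell types and of RNA quality were set beside these results. Of the blood markers measured, 4 of 6 were above the floor and PTPRC and CD14 were below it. The mean log2 level of all 6 was 6.66 to 7.16 with miR-124, highest at 72 h, and 6.59 to 6.82 in the control. CD3D was called higher late. Of the neuron markers 5 of 8 were above the floor, none called, and MAP2, NEFL and DCX were below it. The mean of all 8 was 6.77 to 6.96 with miR-124 and 6.82 to 6.90 in the control. Of the fibroblast markers 5 of 7 were above the floor, none called. The mean of all 7 was 6.04 to 6.27 with miR-124 and 6.06 to 6.22 in the control. Of the endothelial markers 2 of 4 were above the floor and PECAM1 was called higher late. The 3′ minus 5′ difference of the ACTB control probe sets was 0.36 with miR-124 and 0.24 in the control at 72 h, and 0.41 and 0.10 at 120 h. For GAPDH it was 0.30 and 0.15 at 72 h, and 0.20 and 0.03 at 120 h. The part of these differences in the late ratios was not tested.

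Few of the genes lay side by side. In the RefSeq gene order, 2 pairs were direct neighbours among protein-coding genes, CYP17A1 with BORCS7 and NAT2 with PSD3. Genes were also grouped by the start of the symbol alone, which need not match a gene family. Symbols starting with CDH, as for cadherins, gave 2 of 11 tested genes (18.2%), CDH16 and CDHR2. Those starting with TUB, as for tubulins, gave 2 of 22 (9.09%), and with KCN, as for potassium channels, 2 of 44 (4.55%). Zinc finger genes (ZNF) gave 2 of 313 (0.639%) and solute carriers (SLC) 1 of 265 (0.377%), where 152 of 13117 were selected overall. Each of these shares rests on 1 or 2 genes, and none was tested. Many other symbol starts were looked at and gave no selected gene, such as ATP with 0 of 71, RAB with 0 of 69 and KRT with 0 of 34.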

How the data were processed

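Total RNA of 14 HepG2 samples was read on 1 one-colour array each. Per the submitters' processing notes the authors made the deposited values with RMA, whose settings are not given in the sources used here. That the deposited values are log2 was taken from the values, 2.93 to 14.4 with 0 missing. Of 54675 probe sets, 62 were control sets, 41097 had 1 symbol in the platform annotation and 1801 several. The set with the highest mean stood for each of 19775 genes, and 13117 with a mean log2 level above 6.19 were tested.

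Effects in 3 windows (4 and 8 h; 16, 24 and 32 h; 72 and 120 h) came from 1 fit with limma 3.58.1 under R 4.3.3 (lmFit, then eBayes, a two-sided test, with p adjusted by Benjamini-Hochberg over all genes tested and a threshold of 0.05), with time point as a block and 4 residual degrees of freedom. The fit was tested on simulated data. Arrays of a time were paired by their labels, and their deviations from the group means correlated at 0.205 to 0.480 in the 7 pairs. Errors with ± are standard errors of this fit. Each effect averages the pairs of its window. The spread per gene is that of the ratio between times of the same window. It is pooled over all 7 pairs and moderated across genes by eBayes. The number of arrays limits the precision.

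The selected genes, the 26 gene lists and the motifs were chosen with earlier results of these data known, and role groups were made once the genes were known. Any selected gene could be named. Levels by array are given for the 15 with the largest smaller late ratio and for those in a list, and per list the 3 other genes with the largest late effect are named. Figures used matplotlib 3.10.9 in Python 3.11.15.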

Additional observations from a re-analysis of the deposited data

Results flagged for a closer look

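The 7 arrays of each transfection were searched for a highest or lowest value far from the rest, in 28 named genes, in the median level of the selected genes, in the 3′ minus 5′ differences and in the control probe sets. Of 66 sets of 7 arrays, 6 held such a value. Chance gives such a value in about 1 of 20 groups, and the 7 arrays are different times and no replicates.

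PROM1 was lowest in the 72 h control array, at a log2 level of 6.10 against a median of 6.58. PMAIP1 was likewise lowest in the 72 h control array, at 5.66. PCYOX1L was highest in the 120 h control array, at 6.89, and its ratio there was still 1.88. The ACTB 3′ minus 5′ difference was highest in the 24 h miR-124 array, at 0.561. The 4 h miR-124 array had the highest 18S ribosomal RNA signal, a mean log2 of 11.1, and the highest poly-A spike signal, 6.88. The late ratios use neither of those arrays.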

How the results depend on the processing

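The number of selected genes followed the rule closely. From 152 it went to 92 with the mean over a gene's probe sets (70 shared with the 152), to 326 with a late threshold of 0.6, to 69 with 1.0, to 88 with a middle band of 0.2, to 63 when each middle ratio had to lie in the band, to 364 with the 72 h value alone and to 307 with the 120 h value alone. Centring each array on its median gave 172 genes, of which 150 were shared, no level filter 186, a band of 0.4 218 and the unrounded floor, an alternative added after seeing the data, 152. Early on, 0 genes were called under every alternative run, which were no replicate block, the early arrays alone, other scaling, filter and probe choices, and leaving out each time in turn. The count called higher in the late window was 2163, or 2129 without the replicate block (the pairing by time), which also gave 1666 lower late in place of 1659 and 376 higher in the middle in place of 455. With the mean over probe sets 130 of the 152 were called higher late, a count the rule largely fixes. Leaving out a time gave 1678 to 2289 higher and 1142 to 2605 lower late, and without 120 h (2605 lower, 2289 higher) the lower calls were the more numerous. Leaving out a time of a pair window leaves 1 pair, whose spread is taken from other times. The 455 genes called higher in the middle window were 278 with the mean over probe sets and 0 to 1122 leaving out a time, with 0 without 24 h and 3 without 32 h, so this count rests on single arrays. For the 28 genes with values by array, 0 early differences passed the threshold under any alternative, though 22 of 329 alternative early values changed sign. Among the late means 0 changed sign, which the choice of the genes nearly fixed. Of 49 alternative late means 40 stayed near the main value and 9 moved, each with the mean over probe sets. That of HEXA went from 1.14 to 0.42 and that of PPARD from 0.87 to 0.30. Levels near the floor limit the ratios of the 11 genes lifted over it by the late arrays.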
